A study of Homo sapiens with 8 samples.

Results

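The genes described here are the 19 WNT ligand genes, the 10 frizzled receptor genes (FZD1 to FZD10) and the co-receptor genes LRP5 and LRP6, 31 genes in all of 19126 autosomal protein-coding genes of the RefSeq table. They were chosen by gene family, not by a measured value, though with earlier results of these data known. A region was tied to a member where the gene names that the authors deposited with it include that member, which held for 483 of 327994 regions. In those names an unmarked gene is one the region overlaps and a gene marked with a plus or minus sign is a flanking one. No expression was measured, so a gene is described below only by where recovered DNA lay.

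RNA-free genomic DNA of H1, a human embryonic stem cell line, was broken to 200 to 300 bp and tested for DNA that an RNA oligonucleotide can hold. The oligos were MEG3 TFR1 and MEG3 TFR2, named for the imprinted long noncoding RNA MEG3, and GATA6-AS TFR1, named for the transcript antisense to the transcription factor gene GATA6. In each of these groups 6 to 7 µg of the DNA was kept with 20 pmol of biotin-labelled oligo for 1 h at 37 °C, pulled down with streptavidin beads and freed with RNases. The no oligo group went through the same steps with nothing added, and each of the 4 groups had 2 libraries, from independent experiments, of the 8 in all. All 4 groups used purified DNA of 1 cell line, so chromatin and the cell's own RNA were absent from the binding step. No file used here holds the sequences of the oligos.

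WNT proteins are secreted, lipid-bearing growth factors. In the canonical branch a WNT binds a frizzled receptor together with LRP5 or LRP6, the complex that degrades beta-catenin is held off, and beta-catenin turns on target genes with TCF and LEF factors. Other WNTs act through frizzled receptors and ROR2 or RYK on cell polarity and movement. In human embryonic stem cells, WNT signalling is known for driving the exit towards mesoderm and endoderm.

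The authors deposited 2 region lists for each oligo against no oligo, captured (more signal with the oligo) and control (more signal without it). MEG3 TFR1 had 89739 captured and 12649 control regions. MEG3 TFR2 had 73546 captured and 10944 control regions, while GATA6-AS TFR1 had 104786 and 36330. Each region carries 1 log2 ratio and no value per library, no p-value and no read total. The depth and the spread between the libraries are therefore unknown, and no difference below could be tested. Counts of genes reached are set beside the share over all genes where that share was computed. All 3 comparisons share the no oligo libraries, so their values are given side by side and not as independent results. A fold below is 2 to the power of the size of the authors' log2 ratio for 1 region.

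The unmarked names proved incomplete against the RefSeq gene spans. Of the pairs of a captured region and a member span that it overlaps, the authors' column named the member as overlapped in 61.2% with MEG3 TFR1, in 68.6% with MEG3 TFR2 and in 73.6% with GATA6-AS TFR1. Over all named genes the shares were 72.1%, 72.3% and 73.5%. By the authors' names, captured regions overlapped 16 of 31 members with MEG3 TFR1, against 49.4% of all named protein-coding genes. They overlapped 12 members with MEG3 TFR2, against 47.5% of all genes, and 20 members with GATA6-AS TFR1, against 56.9%. By overlap with the RefSeq span the captured lists reached 24, 19 and 24 of 31 members, beside 62.6%, 59.3% and 69.9% of all protein-coding genes. WNT3A with MEG3 TFR1 shows the gap between both ways of counting: 7 captured regions lay inside its span and none carried its name as overlapped. Counts per gene below therefore use the span, unless the authors' name is mentioned.

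**Figure D1:**
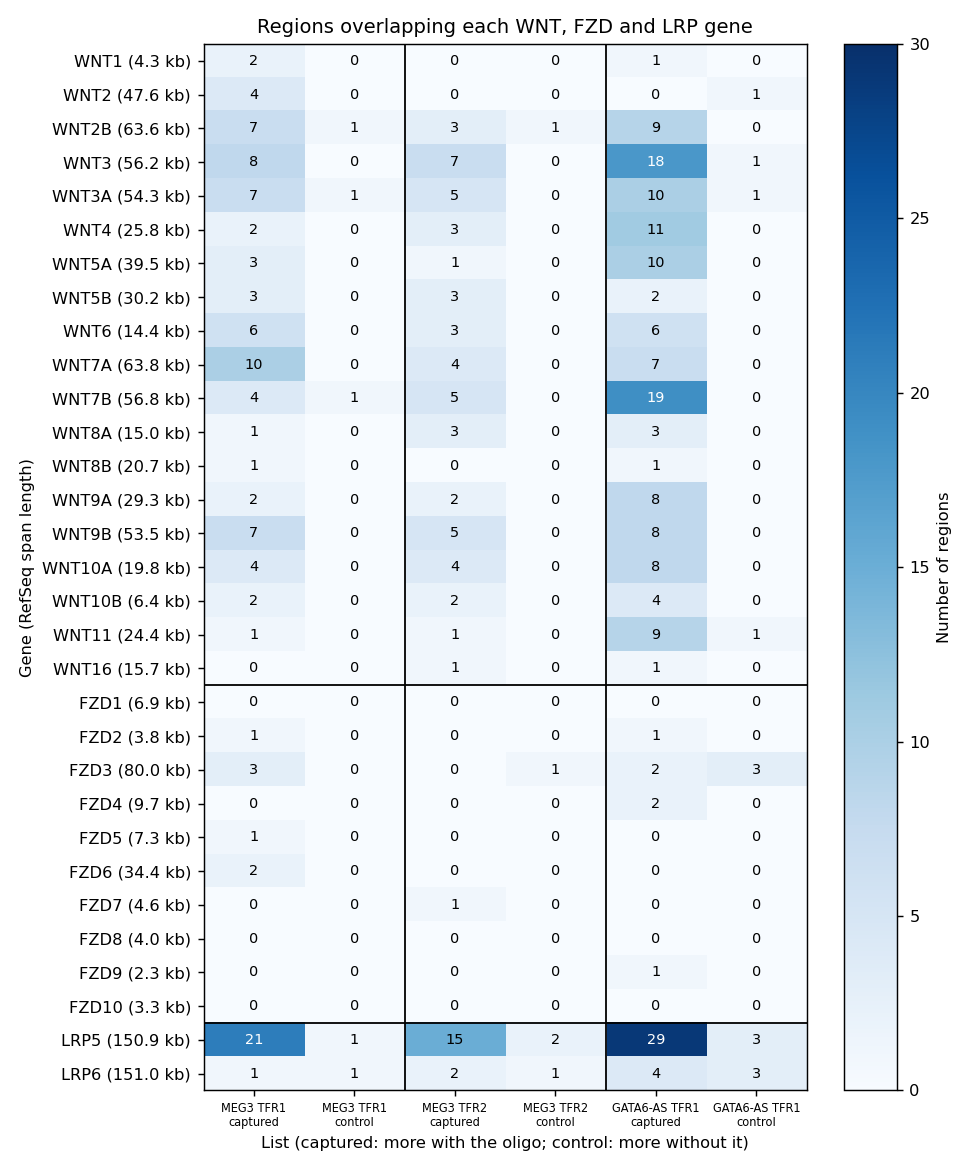
Number of regions overlapping the RefSeq span of each of the 31 genes (rows, with span length in kb) in each of the 6 lists (columns, captured left of control for each oligo); ligands, frizzled receptors and co-receptors are parted by lines. LRP5 holds 21, 15 and 29 captured regions while LRP6, of nearly the same length, holds 1, 2 and 4, and FZD1, FZD8 and FZD10 hold none.

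At the starts of the ligand genes GATA6-AS TFR1 had captured regions far more often than the MEG3 oligos. An annotated start with its strand was on hand for 22 members, 16 of them ligands, from RefSeq promoter windows; WNT7B, WNT10B, WNT11, FZD2, FZD3, FZD6, FZD7, FZD10 and LRP6 have no window in the table. GATA6-AS TFR1 had a captured region within 1 kb of the start of 15 of the 22 members, against 42.9% of 15101 protein-coding genes. MEG3 TFR1 had one at 3 members, against 23.2% of genes, and MEG3 TFR2 at 2 members, against 14.9%. Among the 16 ligands GATA6-AS TFR1 reached 13, and each of the MEG3 oligos reached 2. No member had a region of a control list there, where 1.26% of all genes had one with MEG3 TFR1, 1.31% when the oligo was MEG3 TFR2 and 3.46% when it was GATA6-AS TFR1. No member had a captured region at its annotated start with all 3 oligos, and LRP5 had none there with any. Some spans begin upstream of that start, and regions at such a beginning were not counted. LRP5, on the plus strand, has its annotated start at chr11:68312591 and its span from chr11:68298412. Near that span end lay captured regions from chr11:68298501 with MEG3 TFR2, chr11:68298651 with MEG3 TFR1 and chr11:68298851 with GATA6-AS TFR1. WNT9B likewise had regions of both MEG3 oligos near chr17:46833189, where its span begins, before its start at chr17:46851583.

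**Figure D2:**
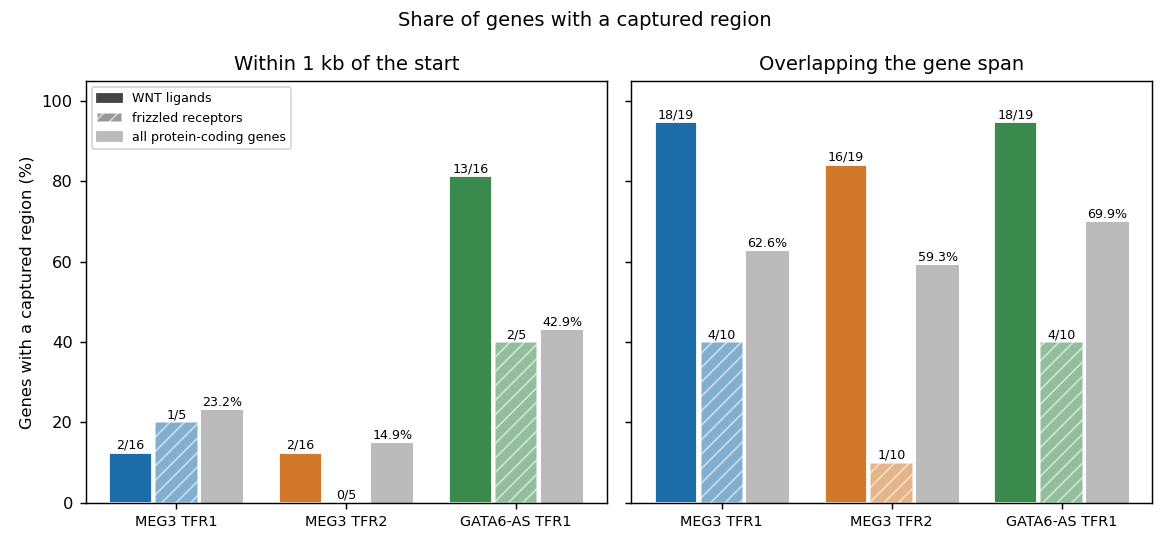
Percent of WNT ligand genes, frizzled receptor genes and all autosomal protein-coding genes with a captured region within 1 kb of the start (left panel) or overlapping the gene span (right panel), for each oligo. Counts stand above the bars of the families; at the start, GATA6-AS TFR1 reached 13 of 16 ligands beside 42.9% of all genes, and both MEG3 oligos reached 2 of 16.

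With GATA6-AS TFR1 the highest ratios at a ligand start belonged to WNT7A and WNT4. WNT7A, a ligand known for patterning the limb and the female reproductive tract, had a 5.13-fold region at chr3:13878601-13879300, 771 bp after its start. WNT4, a ligand of kidney and ovary development, had a 5.10-fold region at chr1:22142051-22142400, 697 bp after its start. WNT2B, a ligand of the developing mouse lung, had a 4.76-fold region at chr1:112507451-112508500, 465 bp before the nearer of its 2 annotated starts. These 3 lay beside the start and not on it. WNT9B, which acts in the kidney tubule, had a 4.32-fold region 218 bp after its start, and WNT5B, a ligand mostly tied to the branch without beta-catenin, had a 4.25-fold region 270 bp after its start. WNT1, the ligand of midbrain patterning, had a 3.44-fold region ending 322 bp before its start. The nearest region of WNT3A, a widely used activator of the canonical branch, was 2.45-fold and lay 453 bp after its start. WNT6 and WNT10A, neighbours on chromosome 2, had 2.08-fold and 2.67-fold regions ending 355 bp and 252 bp before their starts. The 3 ligands with a known start and no GATA6-AS TFR1 region within 1 kb of it were WNT2, WNT8B and WNT9A.

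At the few ligand starts that the MEG3 oligos reached, the ratios lay between 1.73-fold and 2.40-fold. MEG3 TFR1 had a 2.40-fold region 355 bp before the start of WNT6 and a 2.09-fold region 986 bp after a start of WNT2B. MEG3 TFR2 had a 1.73-fold region 981 bp before a start of WNT5B and a 1.91-fold region over the start of WNT8A, a ligand known from early mesoderm in zebrafish. With only regions of log2 1.5 or more, 8 members kept a start region with GATA6-AS TFR1 (21.5% of all genes), and none did with MEG3 TFR1 (11.1%) or MEG3 TFR2 (6.99%). Widening the window to 5 kb narrowed the contrast: 18 of 22 members had a captured region with GATA6-AS TFR1 (60.2% of all genes), while 14 had one with MEG3 TFR1 (47.9%) and 15 with MEG3 TFR2 (40.1%).

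**Figure D3:**
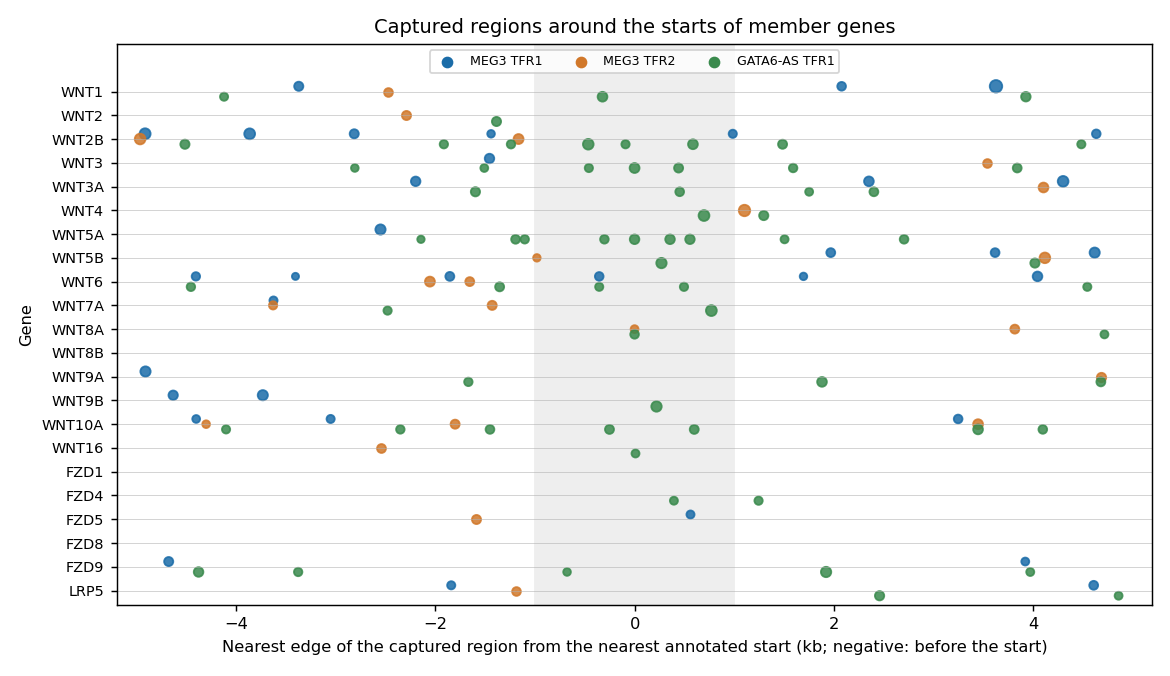
Position of captured regions within 5 kb of the annotated starts of the 22 members with a known start; each point is the nearest edge of 1 region in kb (negative before the start), coloured by oligo and larger for a higher log2 ratio, and the grey band marks 1 kb to each side. Inside the band the GATA6-AS TFR1 points stand at 15 genes, the MEG3 TFR1 points at 3 and the MEG3 TFR2 points at 2.

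Captured regions covered part of the 300 base promoter window itself (250 bases before the start to 50 after it) for 5 members, all ligands. Of the 22 members with a window, 16 are ligands. With GATA6-AS TFR1 this held for 5 of the 25 windows of members, beside 3680 of the 21156 windows of all genes. With MEG3 TFR2 it held for 1 member, beside 678 windows of all genes, and with MEG3 TFR1 for 0, beside 1482. The 5 windows are shown because they are the member promoters that the recovered DNA overlapped, 5′ to 3′ along each gene. Capitals mark the longest run of purines, or of pyrimidines, which is a run of purines on the other strand. Sequences are from RefSeq, build GRCh38.p14: WNT3 at chr17:46818643-46818942 on the minus strand, WNT5A at chr3:55481349-55481648 on the minus strand, WNT8A at chr5:138083783-138084082 on the plus strand, WNT2B at chr1:112466291-112466590 on the plus strand and WNT16 at chr7:121328750-121329049 on the plus strand.
WNT3: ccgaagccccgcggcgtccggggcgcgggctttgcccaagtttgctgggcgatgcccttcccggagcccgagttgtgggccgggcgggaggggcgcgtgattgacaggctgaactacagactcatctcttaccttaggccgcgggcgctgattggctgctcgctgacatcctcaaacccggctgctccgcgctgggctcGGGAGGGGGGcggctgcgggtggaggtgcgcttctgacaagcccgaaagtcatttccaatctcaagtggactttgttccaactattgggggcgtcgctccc
WNT5A: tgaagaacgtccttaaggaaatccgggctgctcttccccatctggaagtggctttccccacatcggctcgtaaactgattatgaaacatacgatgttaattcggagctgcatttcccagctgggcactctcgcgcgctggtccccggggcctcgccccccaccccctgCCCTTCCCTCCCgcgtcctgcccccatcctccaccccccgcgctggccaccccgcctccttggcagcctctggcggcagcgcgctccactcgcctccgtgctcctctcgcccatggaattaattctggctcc
WNT8A: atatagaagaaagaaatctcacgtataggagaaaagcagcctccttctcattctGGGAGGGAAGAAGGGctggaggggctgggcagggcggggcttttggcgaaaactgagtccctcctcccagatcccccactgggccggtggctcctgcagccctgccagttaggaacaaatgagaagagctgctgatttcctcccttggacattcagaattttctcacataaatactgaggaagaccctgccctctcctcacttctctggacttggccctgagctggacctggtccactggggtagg
WNT2B: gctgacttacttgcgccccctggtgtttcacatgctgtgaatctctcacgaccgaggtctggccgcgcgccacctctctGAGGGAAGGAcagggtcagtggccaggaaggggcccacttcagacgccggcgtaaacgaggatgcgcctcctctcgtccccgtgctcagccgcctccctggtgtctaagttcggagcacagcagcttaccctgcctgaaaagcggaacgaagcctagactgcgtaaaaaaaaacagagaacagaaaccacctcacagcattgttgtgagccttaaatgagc
WNT16: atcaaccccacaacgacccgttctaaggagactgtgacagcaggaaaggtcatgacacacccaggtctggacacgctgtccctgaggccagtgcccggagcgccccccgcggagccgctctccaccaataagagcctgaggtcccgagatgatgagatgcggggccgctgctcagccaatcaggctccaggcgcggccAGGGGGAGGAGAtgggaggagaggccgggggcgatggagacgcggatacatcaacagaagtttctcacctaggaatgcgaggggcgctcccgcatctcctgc

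The WNT3 window met a GATA6-AS TFR1 region of log2 1.85, and its marked run is 10 purines, a length that 71.9% of all windows reach. WNT3 encodes a canonical ligand needed for the primitive streak in mice. The WNT5A window met a region of log2 1.69 of the same oligo and holds a run of 12 pyrimidines, reached by 45.2% of windows. WNT5A is the main ligand of the branch that works through ROR2. The WNT8A window met a MEG3 TFR2 region of log2 0.93 and a GATA6-AS TFR1 region of log2 1.26, and its run of 15 purines is the longest of the 5, reached by 20.4% of windows. The upstream WNT2B window and the WNT16 window met GATA6-AS TFR1 regions of log2 1.09 and 0.97, with runs of 10 and 12 purines. WNT16 encodes a ligand known for its part in bone strength.

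Purine motifs were counted on both strands of the same windows. GAGAGA stood in 21.4% of the 21156 windows of all genes, GGAGGA in 39.7% and GAAGAA in 17.4%, and overlapping matches of different motifs were each counted. Of the 25 windows of members, 2 held GAGAGA, 12 held GGAGGA and 7 held GAAGAA, and 12 had a run of 12 or more. Among the 5 printed windows GGAGGA or its complement stood in WNT8A, WNT5A and WNT16, GAAGAA in WNT8A and WNT5A, and GAGAGA in WNT2B. Over all genes, GAGAGA was in 38.2% of the windows under a MEG3 TFR1 region and in 20.1% of the others. For MEG3 TFR2 the shares were 31.7% and 21%, and for GATA6-AS TFR1 they were 24.1% and 20.8%. GGAGGA was in 53.7%, 52.4% and 48.1% of the windows under a region of each oligo in that order, against 38.6%, 39.3% and 37.9% of the others. GAAGAA was in 21.7%, 19.3% and 16.1%, against 17.1%, 17.3% and 17.7%, so GATA6-AS TFR1 had the lower share under its regions. Member windows were richer in G and C than most, with a median of 73.7% against 62.7% over all windows. Among all genes whose richest window held at least 70% G and C, GATA6-AS TFR1 had a start region at 51.7%, and 10 of the 14 members of that kind had one. Below that limit the share was 38.8% of all genes, and 5 of 8 members had one. At or above it MEG3 TFR1 reached 3 of 14 members beside 23.5% of all genes, and MEG3 TFR2 reached 0 of 14 beside 15.2%. Below it MEG3 TFR1 reached 0 of 8 members beside 23% of all genes, and MEG3 TFR2 reached 2 of 8 beside 14.7%. What part base composition has in these counts was not tested.

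Inside the genes most of the captured regions of members lay in the ligands. Of 19 ligand spans, 18 were overlapped by captured regions with MEG3 TFR1, 16 when the oligo was MEG3 TFR2 and 18 when it was GATA6-AS TFR1, beside 62.6%, 59.3% and 69.9% of all genes. The exceptions were WNT16 with MEG3 TFR1, WNT1, WNT2 and WNT8B with MEG3 TFR2, and WNT2 with GATA6-AS TFR1. Per 100 kb of summed ligand span there were 11.5, 8.11 and 21.0 captured regions in the same order of oligos, against 4.05, 3.35 and 5.33 over all protein-coding genes. By the median, captured regions were also denser around the ligand genes. The median number within 500 kb of a ligand gene's middle was 66, 49 and 114, against 50, 39 and 55 for all genes. Single ligands differed widely, from 12 to 116, from 13 to 91 and from 8 to 177 in the same order. Ligands that sit side by side share much of these surroundings, so they are not independent. Counts within 500 kb include the gene's own regions. The median ligand length was 29.3 kb and that of all genes 24.5 kb. What part the surroundings have in the ligand counts was not tested.

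WNT3 and WNT7B held the most captured regions of any ligand, both with GATA6-AS TFR1. WNT3, at chr17:46762506-46818692, was overlapped by 18 captured regions of GATA6-AS TFR1, 8 of MEG3 TFR1 and 7 of MEG3 TFR2. One of the 18, at chr17:46769651-46769950, had the highest ratio of all member regions at 14.5-fold, while the other 17 lay between 1.81-fold and 3.69-fold. The highest MEG3 TFR2 ratio of WNT3, over regions in its span or named as overlapping it, was 5.00-fold. WNT7B, a ligand of lung and brain vessel growth, held 19 captured regions of GATA6-AS TFR1, against 4 of MEG3 TFR1 and 5 of MEG3 TFR2. Its highest region, 8.82-fold at chr22:45977451-45977750, lay 289 bp beyond the higher-coordinate end of the RefSeq span and was named by the authors as overlapping it. With MEG3 TFR2 the highest region in the WNT7B span was 4.90-fold. WNT4 and WNT11, which takes part in cell movement, held 11 and 9 captured regions of GATA6-AS TFR1, against 2 and 1 of MEG3 TFR1 and 3 and 1 of MEG3 TFR2. WNT5A held 10 of GATA6-AS TFR1, with the highest at log2 2.49, 3 of MEG3 TFR1 and 1 of MEG3 TFR2 at log2 2.36. The GATA6-AS TFR1 list was also the longest, so raw counts between oligos carry the length of the lists.

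WNT7A and WNT2 held more captured regions of MEG3 TFR1 than of the longer GATA6-AS TFR1 list. So did WNT1, WNT5B, FZD3, FZD5 and FZD6, with few regions each. WNT7A held 10 captured regions of MEG3 TFR1, 4 of MEG3 TFR2 and 7 of GATA6-AS TFR1, and its highest MEG3 TFR1 regions were 6.87-fold at chr3:13853751-13854000 and 6.76-fold at chr3:13832201-13832750. WNT2, a ligand of lung and placenta, held 4 captured regions of MEG3 TFR1, of 1.79-fold to 3.73-fold, and none of the other oligos. WNT2B held 7 of MEG3 TFR1, 3 of MEG3 TFR2 and 9 of GATA6-AS TFR1. The highest WNT2B regions of both MEG3 oligos lay at one place, 5.43-fold at chr1:112503301-112504050 with MEG3 TFR1 and 4.82-fold at chr1:112503601-112504000 with MEG3 TFR2. WNT3A had captured regions of all 3 oligos near the middle of the gene, with its highest of MEG3 TFR1 at 5.59-fold, 28.8 kb after the start.

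The highest ligand ratio inside a span fell on WNT1 with MEG3 TFR1 and on WNT4 with MEG3 TFR2. By the authors' names WNT5B had a higher one with MEG3 TFR2. With MEG3 TFR1 the WNT1 region at chr12:48981951-48982350 was 10.1-fold, inside the short WNT1 span (4299 bp), though the authors' column gave WNT1 there as a flanking gene. A GATA6-AS TFR1 region overlapping it, at chr12:48982251-48982600, was 3.15-fold, and the MEG3 TFR2 captured list had nothing in WNT1. With MEG3 TFR2 the region at chr12:1592401-1592900 was 11.3-fold and was named as overlapping WNT5B, although it lay 24.2 kb before the RefSeq span of that gene. Inside the span, WNT5B held 3 MEG3 TFR2 regions, the highest at 4.74-fold, 3 of MEG3 TFR1 and 2 of GATA6-AS TFR1. For WNT4 the highest region was 5.33-fold when the oligo was MEG3 TFR1, and with MEG3 TFR2 it was 6.47-fold and lay 1.10 kb after the start.

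**Figure D4:**
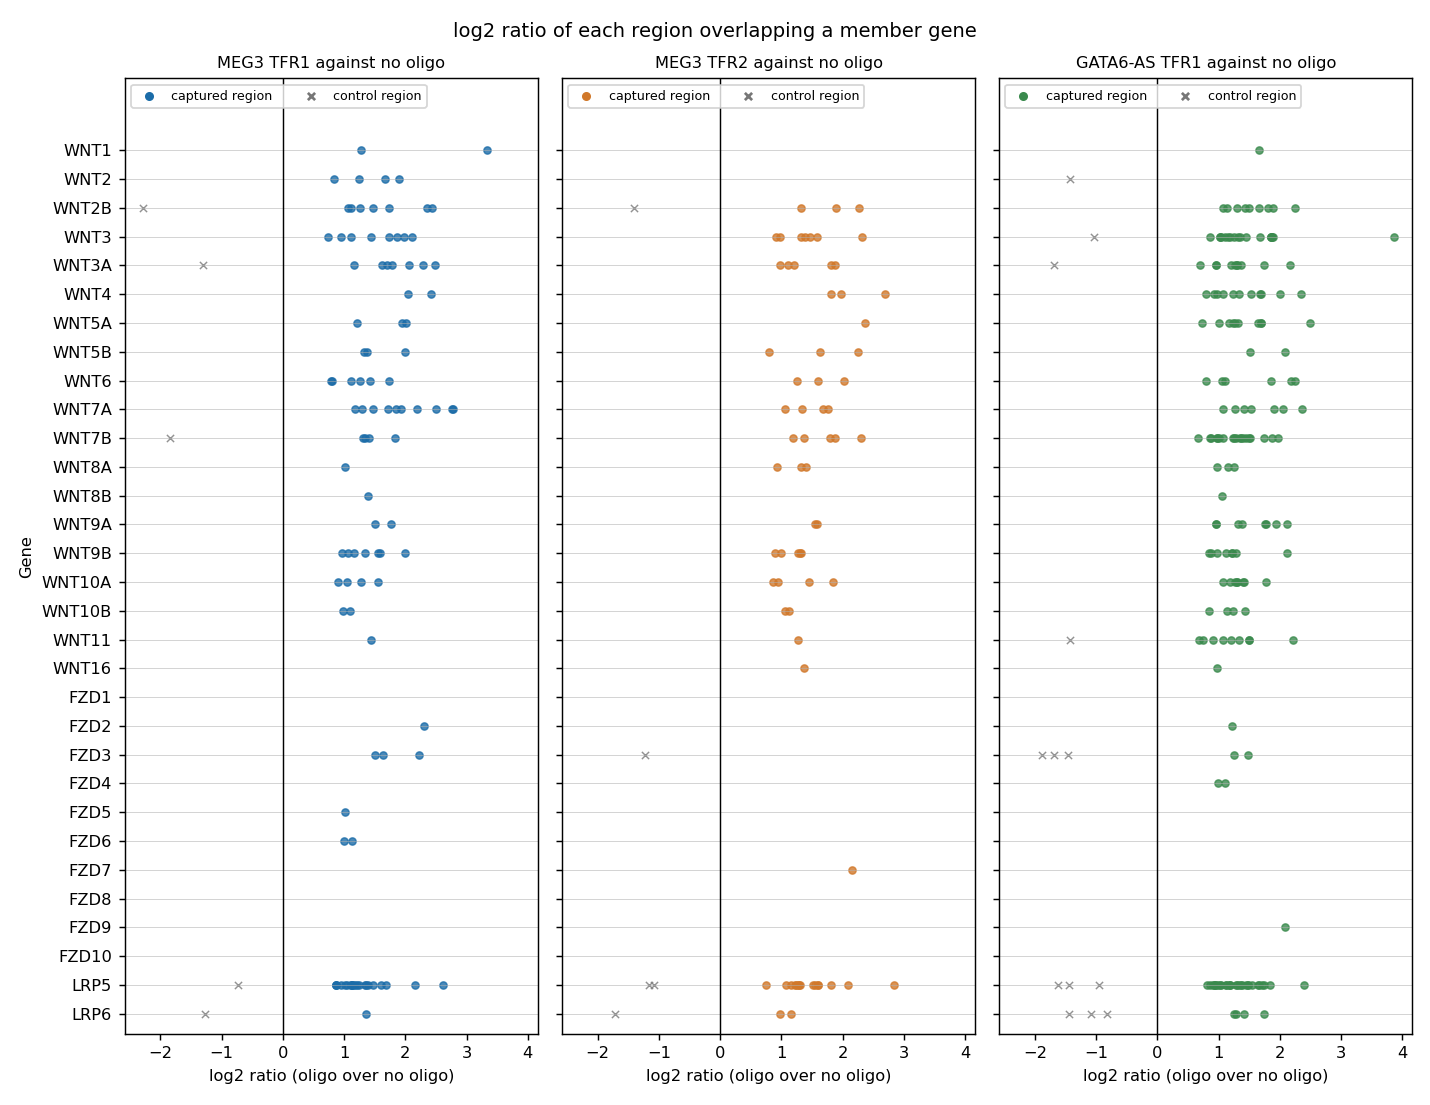
log2 ratio of oligo over no oligo for every region that overlaps a member's RefSeq span, by gene, with captured regions as dots and control regions as crosses, 1 panel for each oligo. Most captured dots lie between 0.7 and 2.5, WNT1 with MEG3 TFR1 (3.33) and WNT3 with GATA6-AS TFR1 (3.86) stand apart, and control crosses appear in 9 genes.

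Some ligand genes sit side by side in the genome and were also counted over their joint stretch. WNT6 and WNT10A overlap by their ends, and their joint 34.1 kb held 10 captured regions of MEG3 TFR1, 7 of MEG3 TFR2 and 14 of GATA6-AS TFR1, with no control region. One place near the end of WNT6 was in all 3 captured lists: 2.17-fold and 2.68-fold regions of MEG3 TFR1 at chr2:218872201-218872550 and chr2:218873001-218873400, a 4.05-fold region of MEG3 TFR2 at chr2:218872201-218873350 and a 3.62-fold region of GATA6-AS TFR1 at chr2:218872301-218873400. WNT10B, a ligand of fat and bone biology, and WNT1 share 17.3 kb of chromosome 12 with 5, 3 and 7 captured regions in the same order of oligos and no control region. WNT3 and WNT9B span 124 kb with 18, 13 and 31 captured regions, against 0, 0 and 1 control regions. WNT9A, known from joint formation, and WNT3A span 143 kb with 13, 8 and 22 captured regions, against 2, 1 and 1 control regions.

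The remaining ligands held few regions each. WNT8A held 1 captured region of MEG3 TFR1, 3 of MEG3 TFR2 and 3 of GATA6-AS TFR1, all between 1.91-fold and 2.64-fold. WNT8B, expressed in the forebrain, held 1 region of MEG3 TFR1 (2.61-fold) and 1 of GATA6-AS TFR1 (2.08-fold), which overlap each other near the far end of the gene. WNT16 held 1 region of MEG3 TFR2 (2.58-fold) and 1 of GATA6-AS TFR1 (1.96-fold).

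The frizzled genes, which encode the receptors, held far fewer captured regions than the ligands. Of 10 frizzled spans, captured regions overlapped 4 with MEG3 TFR1, 1 when the oligo was MEG3 TFR2 and 4 when it was GATA6-AS TFR1, beside the same 62.6%, 59.3% and 69.9% of all genes. Per 100 kb of summed span this gave 4.48, 0.639 and 3.84 regions, against 4.05, 3.35 and 5.33 over all genes. Most frizzled genes are short, with a median span of 5.74 kb, and 1 gene, FZD3, makes up 80.0 kb of the total. The median number of captured regions within 500 kb was 46, 32.5 and 36.5, against 50, 39 and 55 for all genes.

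FZD3, a receptor used in axon guidance in mice, held 3 captured regions of MEG3 TFR1, with the highest at 4.69-fold, and 2 of GATA6-AS TFR1 at 2.79-fold and 2.39-fold. Its span was the only frizzled span with control regions, 1 of MEG3 TFR2 at 2.34-fold and 3 of GATA6-AS TFR1 at 2.74-fold to 3.68-fold towards no oligo. FZD2, which can pair with WNT5A, held a 4.95-fold region of MEG3 TFR1 and a 2.34-fold region of GATA6-AS TFR1. FZD7, the frizzled gene most tied to human embryonic stem cells, held 1 region of MEG3 TFR2, 4.43-fold at chr2:202036201-202036450. A GATA6-AS TFR1 region of 3.95-fold ended 255 bp before its span and was named as overlapping it. FZD9 held 1 region of GATA6-AS TFR1, 4.22-fold at chr7:73435701-73436450. That region lay more than 1 kb from the annotated start of FZD9 at chr7:73433778. The GATA6-AS TFR1 region counted at that start was another one, outside the span. FZD4, a receptor for norrin in retinal vessels, held 2 of GATA6-AS TFR1, 1.98-fold and 2.14-fold, the nearer 395 bp after its start. FZD5, a receptor of the mouse eye and gut, held 1 of MEG3 TFR1, 2.01-fold and 556 bp after its start, and FZD6, a receptor of hair patterning in mice, held 2 of MEG3 TFR1, 2.19-fold and 1.99-fold.

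FZD1, FZD8 and FZD10 were overlapped by no captured region of any oligo, by name or by span, and they were the only such members. Each of these genes is much shorter than the median protein-coding gene. The share of all protein-coding genes that every captured list misses was not computed, for genes of this length or for all. Whether such a lack is unusual was therefore not tested. For FZD10 the nearest captured region lay 1.46 kb away with MEG3 TFR1, 4.96 kb with MEG3 TFR2 and 0.364 kb with GATA6-AS TFR1, the last of them 3.58-fold at chr12:130161401-130162100. For FZD8 the gaps were 4.80, 14.6 and 14.7 kb in the same order of oligos. FZD1 stood farthest from captured DNA, with gaps of 44.0, 40.1 and 32.0 kb.

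The co-receptor genes LRP5 and LRP6 encode close relatives that act in the same receptor complex, and their spans are alike in length at 150864 bp and 151020 bp. LRP5, at chr11:68298412-68449275, held 21 captured regions of MEG3 TFR1, 15 of MEG3 TFR2 and 29 of GATA6-AS TFR1, against 1, 2 and 3 control regions. LRP6, at chr12:12116025-12267044, held 1, 2 and 4 captured regions, against 1, 1 and 3 control regions. LRP5 thus had more captured regions than LRP6 with each oligo, while the control regions of both genes ranged from 1 to 3. Within 500 kb of the middle of LRP5 there were 71, 50 and 116 captured regions, and around LRP6 there were 47, 40 and 36. These counts include the regions inside each gene, so they do not describe the surroundings alone.

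The regions of LRP5 were spread along the gene and mostly modest. With MEG3 TFR1 the highest was 6.13-fold at chr11:68305251-68305550, MEG3 TFR2 reached 7.19-fold at chr11:68364801-68365150, and GATA6-AS TFR1 reached 5.26-fold at chr11:68422501-68422900. One place in LRP5 was in all 3 control lists, at 1.67-fold for MEG3 TFR1 (chr11:68418251-68419000), at 2.12-fold when the oligo was MEG3 TFR2 (chr11:68418201-68418800) and at 2.72-fold when it was GATA6-AS TFR1 (chr11:68418251-68418600), towards no oligo each time. LRP6 likewise had 1 place in all 3 control lists, near chr12:12175051-12175700, at 2.40-fold, 3.29-fold and 1.76-fold in the same order. Since the same no oligo libraries stand in all 3 comparisons, such a place is not 3 independent observations. The highest LRP6 captured ratios were 2.57-fold, 2.22-fold and 3.36-fold.

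**Figure D5:**
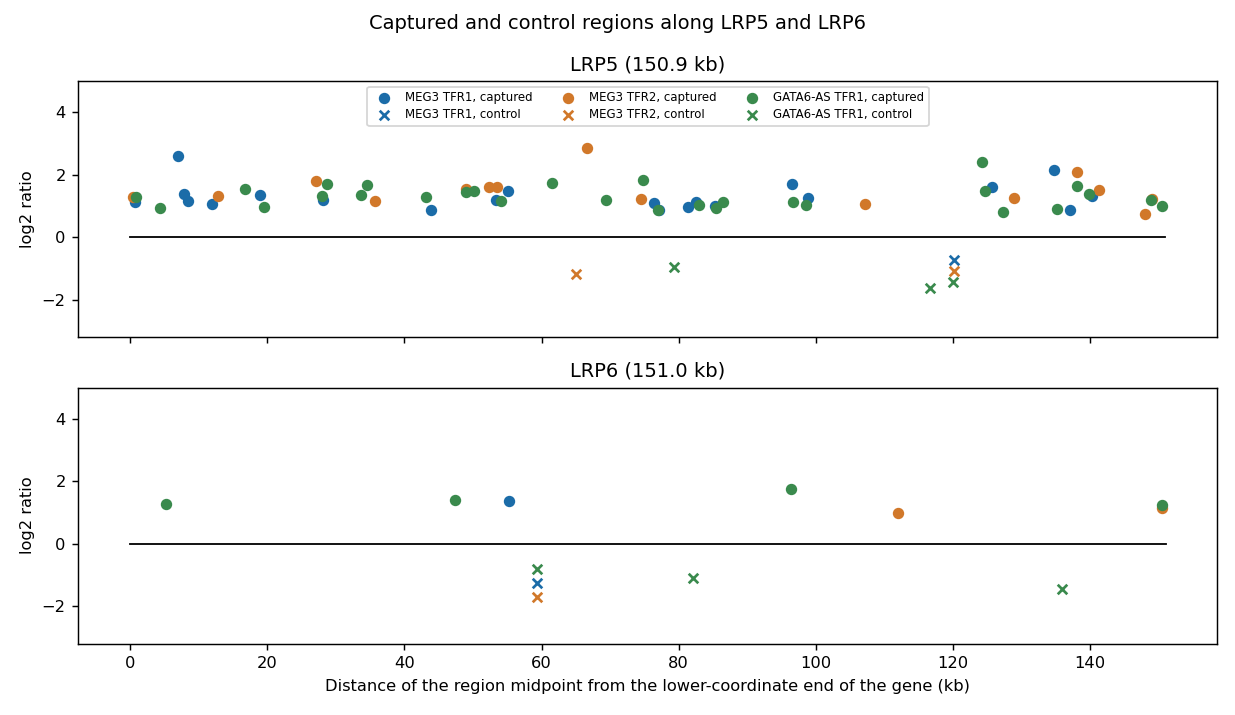
log2 ratio of each captured (dots) and control (crosses) region along LRP5 (top) and LRP6 (bottom), by the distance of the region's middle from the lower-coordinate end of the gene in kb, coloured by oligo. Captured regions run along all of LRP5, 21 with MEG3 TFR1, 15 with MEG3 TFR2 and 29 when the oligo was GATA6-AS TFR1, and 1, 2 and 4 lie in LRP6.

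Control regions were fewer than captured regions in these genes. In all member spans together there were 103 captured and 5 control regions with MEG3 TFR1, 70 and 5 when the oligo was MEG3 TFR2, and 174 and 13 when it was GATA6-AS TFR1. Captured regions were 95.4% of the sum with MEG3 TFR1 (95% exact Clopper-Pearson interval 89.5% to 98.5%), 93.3% when the oligo was MEG3 TFR2 (85.1% to 97.8%) and 93.0% when it was GATA6-AS TFR1 (88.4% to 96.2%). These intervals cover counting error over regions only, and regions of 1 gene are not independent. Over all named protein-coding genes the shares were 88.7%, 88.2% and 77.6%. A captured share depends on both counts, so a higher one need not mean fewer control regions. Captured regions per 100 kb of summed span were 9.37, 6.37 and 15.8 in members, against 4.05, 3.35 and 5.33 over all protein-coding genes. Control regions overlapped 5, 4 and 7 of the 31 member spans, beside 21.3%, 19.4% and 40% of all genes. By the authors' names they overlapped 3, 3 and 5 members, beside 21.6%, 19.8% and 35.8%. The 9 members with a control region in their span in any list were WNT2, WNT2B, WNT3, WNT3A, WNT7B, WNT11, FZD3, LRP5 and LRP6.

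Either end of a gene could be used for all 31 members, at the price that the start and the far end are not told apart. A captured region lay within 1 kb of an end of 12 members with MEG3 TFR1 (29.4% of all genes), 11 with MEG3 TFR2 (23.2%) and 23 with GATA6-AS TFR1 (48.8%). A control region lay there for 1 member with each oligo, WNT3, beside 2.44%, 2.32% and 6.18% of all genes. That place is the far end of WNT3, 256 bp, 206 bp and 156 bp beyond the span in the same order of oligos, at 2.96-fold, 2.42-fold and 2.40-fold towards no oligo.

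The sizes of the ratios in member genes were close to those of the lists they came from. The median log2 ratio of captured regions in member spans was 1.39, 1.37 and 1.29 in the same order of oligos, against 1.41, 1.44 and 1.34 over the whole lists. Regions of log2 1.5 or more were 42.7%, 42.9% and 30.5% of those in member spans, against 42.4%, 44.5% and 35.3% of all captured regions.

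Other genes of the pathway, in 6 lists of 52 genes, gave another pattern of counts at their starts. Of 40 such genes with a known start, 14 had a captured region within 1 kb of it when the oligo was MEG3 TFR1, 10 when it was MEG3 TFR2 and 20 when it was GATA6-AS TFR1, beside 23.2%, 14.9% and 42.9% of all genes. A control region lay there for 0, 0 and 1 of them, the 1 being CSNK1A1, a kinase that primes beta-catenin for degradation, at 2.81-fold towards no oligo. Of the secretion genes, WLS, the carrier of WNT proteins to the cell surface, had a 6.37-fold start region of GATA6-AS TFR1. Of the 6 secreted inhibitors with a known start, 3, 2 and 3 had one in the same order of oligos, among them SFRP4 at 3.27-fold with MEG3 TFR1 and DKK1, which blocks LRP5 and LRP6, at 2.97-fold with MEG3 TFR2. SFRP5 had start regions of all 3 oligos at 2.73-fold, 1.87-fold and 2.15-fold.

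R-spondins, which keep frizzled receptors on the cell surface, and their receptors and ligases had 3, 0 and 4 of 6 starts reached. RSPO3 and RSPO4 had the highest ratios of that list, 6.47-fold and 4.81-fold with GATA6-AS TFR1. In the cytoplasmic relay and destruction complex 3, 2 and 5 of 10 starts were reached, DVL2 and APC with all 3 oligos. The DVL2 ratios were 3.91-fold, 2.12-fold and 1.91-fold and the APC ratios 2.49-fold, 3.75-fold and 2.55-fold. The APC regions were not at one start: that of MEG3 TFR2 lay at chr5:112706451-112706750. Those of MEG3 TFR1 and GATA6-AS TFR1 lay at chr5:112737951-112738450 and chr5:112737551-112738300. Among the nuclear effectors 3, 3 and 3 of 7 starts were reached, and TCF7L2, a DNA partner of beta-catenin, had 2.24-fold, 3.52-fold and 4.80-fold regions. TCF7 also had start regions of all 3 oligos, at 3.32-fold, 1.71-fold and 2.33-fold. Among the polarity genes and their co-receptors 2, 3 and 4 of 10 starts were reached. PTK7 had start regions of all 3 oligos, at 1.61-fold, 2.44-fold and 3.87-fold. ROR2, the receptor of WNT5A, had a 7.53-fold start region with GATA6-AS TFR1, CELSR3 a 4.41-fold region with the same oligo, and CELSR2, a polarity cadherin, a 2.19-fold region with MEG3 TFR1 and a larger one with MEG3 TFR2. By their spans, 42, 39 and 47 of 51 pathway genes held a captured region, beside 62.6%, 59.3% and 69.9% of all genes. A control region lay in 12, 14 and 27 of them, beside 21.3%, 19.4% and 40% of all genes.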

How the data were processed

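The authors deposited, for each oligo, a list of captured and a list of control regions with positions, gene names and 1 value per region. The deposited values were taken as log2 ratios because, raised as powers of 2, 98.2% to 99.96% of a list's regions gave quotients of whole numbers (divisor up to 400, tolerance 3e-10). The build hg38 and the tools BWA 0.7.15-r1140 and FastQC come from the submitters' processing notes. Region caller, its settings and library scaling were not given in the sources used here. Input DNA, which the design text mentions, was not analysed here. Since the lists hold no value per library, depth, replicate spread and any test over samples could not be computed.

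Regions, with coordinates printed from 1, were assigned by the authors' names, by at least 1 bp of overlap with RefSeq gene spans (GRCh38.p14), and by distance to starts from the RefSeq promoter windows, which cover 22 of the 31 members. No genome sequence was used here. Unmarked names overlapped the gene's span in 91.4% of cases. Flanking names lay outside it in 97.7% of cases, at a median of 29.2 kb. The background was 19126 autosomal protein-coding genes, 16136 of them named in some list and 15101 with a promoter window. The assignment was tested on simulated data with planted regions. All members are accounted for. Named in full were, for each oligo, the 6 members with the highest captured ratio, members with a captured start region with all oligos or with a control start region, and members with no captured region. Also named were up to 6 promoters under captured regions and up to 4 pathway genes a list by start ratio. Other members, and the pathway genes beyond these, were named for completeness. The members and lists were chosen with earlier results of these data known. Alternatives were stricter ratios, other windows and overlaps, other gene assignments and left-out genes. The G and C split was added after seeing the data. Python 3.11.15, numpy 2.4.6, pandas 2.3.3, scipy 1.17.1 and matplotlib 3.10.9 were used.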

Additional observations from a re-analysis of the deposited data

How the results depend on the processing

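Values are given in the order of oligos used above (the MEG3 pair, then GATA6-AS TFR1), captured lists first, and the causes were not tested. Shares over all genes stand above for plain spans. For captured lists they also stand above for the 5 kb start window and for start regions of log2 1.5 or more. For the 300 base window, numbers of windows of all genes stand above. No share was computed for the other settings, so those counts show only how they change with the setting. With regions of log2 1.5 or more, members named as overlapped numbered 10 with MEG3 TFR1, members with a start region 0, 0 and 8, members with a region at either end 5, 3 and 13, and regions named for members 27, 24 and 51. In the control lists that limit left 0 members and 0 regions with MEG3 TFR2 and 3 members and 4 regions with GATA6-AS TFR1, and 0 at either end for both. With the top 50% of each list, start counts were 0, 0 and 9, either-end counts 7, 4 and 13, and regions 31, 25 and 68. In the control lists the top 50% left 0 members and 0 regions with MEG3 TFR2, 3 members and 4 regions with GATA6-AS TFR1, and 0 at either end for both. Both limits gave 100% captured regions with MEG3 TFR2. Overlapped and flanking names together gave 30, 28 and 31 members, and 9, 9 and 21 in the control lists. RefSeq spans with 5 kb to each side gave 28 and 26 members with MEG3 TFR1 and MEG3 TFR2, and 8, 7 and 12 in the control lists. Plain spans gave 19 members with MEG3 TFR2, and 5 members and 5 regions in the MEG3 TFR1 control list. A 5 kb window gave 14 and 15 members at the start and 26 and 25 at either end with the MEG3 oligos, with 1 and 1 at the start and 4, 3 and 9 at either end in the control lists. The 300 base promoter window gave 0, 1 and 5 members, and asking for 50% of a region inside the start window gave 1 with MEG3 TFR2. Without LRP5, an alternative chosen after seeing the data, the MEG3 TFR2 control list kept 2 regions. The other 77 of these values moved by no more than 1.5 times, among them the start count of GATA6-AS TFR1 in a 5 kb window (18). For single genes 253 values stayed within that limit and 119 did not. Many of the 253 were counts of 0, which stricter ratios cannot change, so that number does not measure stability. No paired analysis was possible because the lists hold no value per library, and for the same reason no library could be left out.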
